A study of Mus musculus with 1536 samples.

Results

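The 8 genes described here encode ionotropic glutamate receptor subunits of the NMDA and delta families: Grin1, Grin2a, Grin2b, Grin2c, Grin2d, Grin3a, Grin3b and Grid1. They were taken by name from a table of 53263 genes, and all 8 were among the 25522 genes with at least 1 read in 3 or more cells. The measurement was single-cell RNA-seq by Smart-seq2 of serotonin neurons, which were isolated from the mouse raphe by fluorescence-activated sorting for tdTomato. The mice were C57BL/6J, 40 to 45 days old, and carried the Sert-tdTomato-Cre cross with Ai14, in which Cre from the serotonin transporter gene switches on a lasting tdTomato reporter, so that cells with past as well as present transporter expression are marked. Every cell of both groups carried both alleles. The table held 999 cells in 2 groups. The Principal DR group (290 cells on 5 plates) came from the dorsal raphe (DR) without its caudal extension, and the All DR group (709 cells on 11 plates) came from a dissection that also took in the caudal DR and the median raphe. The study took several brains for each dissection, but no animal is named for a cell, so each dissection was treated as 1 sample. No test of a condition over animals was possible. Values are given with their spread over plates, which were taken as technical units because no label links them to animals.

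NMDA receptors are tetramers that pass calcium when glutamate and a co-agonist are bound and the membrane is depolarised enough to expel magnesium from the pore. Each contains the obligatory subunit GluN1, the product of Grin1, which binds glycine or D-serine. GluN1 is joined by GluN2 subunits (Grin2a to Grin2d), which bind glutamate and set the kinetics and magnesium block, and in some receptors by GluN3 subunits (Grin3a, Grin3b), which bind glycine and lower calcium permeability. The delta subunit GluD1, from Grid1, shares the family's fold but is best known as a postsynaptic organiser that binds cerebellins, secreted proteins held by neurexins on the presynaptic side. Serotonin neurons receive glutamatergic input from the cortex and many subcortical regions.

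On GRCm38, with the GENCODE annotation, the 8 genes lie on different chromosomes. Grin1 is at chr2:25291181-25319187 on the minus strand. The GluN2 genes, all on the minus strand, are Grin2a at chr16:9567898-9995560, Grin2b at chr6:135713233-136173511, Grin2c at chr11:115249169-115267243 and Grin2d at chr7:45831883-45878378. The GluN3 genes are Grin3a at chr4:49661611-49845744 on the minus strand and Grin3b at chr10:79970715-79977190 on the plus strand. Grid1 is at chr14:34820108-35583379 on the plus strand. The authors' counting did not use strand, and in its mode a read lying wholly in exon bases shared by genes is ambiguous. Such a read is counted for neither gene, so levels could be understated where exons overlap antisense neighbours, which was not tested. Grin1os covers 13.5% of Grin1 exon bases (it was itself at 1.62 CPM, reads normalised to the reads of the cell). Gm45441 covers 9.66% of Grin2d (0.150 CPM), and Tmem259 covers 32.1% of Grin3b (19.9 CPM).

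Promoter sequences were at hand in RefSeq (GRCm38.p6) for 4 of the 8 genes, Grin1, Grin2c, Grin2d and Grin3b, and they are shown because these 4 span the range of levels found below, from nearly every cell to almost none. Each runs 5′ to 3′ on the gene's strand from 250 bases before to 50 bases after the transcription start, and capitals mark the GC-box letters GGGCGG, searched on both strands (CCGCCC on the other).
Grin1: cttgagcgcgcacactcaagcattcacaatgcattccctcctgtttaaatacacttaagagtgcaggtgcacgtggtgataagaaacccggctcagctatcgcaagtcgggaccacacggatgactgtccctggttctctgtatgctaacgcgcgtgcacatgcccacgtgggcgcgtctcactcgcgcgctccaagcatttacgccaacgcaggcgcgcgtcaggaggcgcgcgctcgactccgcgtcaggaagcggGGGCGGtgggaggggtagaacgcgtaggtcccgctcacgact
Grin2c: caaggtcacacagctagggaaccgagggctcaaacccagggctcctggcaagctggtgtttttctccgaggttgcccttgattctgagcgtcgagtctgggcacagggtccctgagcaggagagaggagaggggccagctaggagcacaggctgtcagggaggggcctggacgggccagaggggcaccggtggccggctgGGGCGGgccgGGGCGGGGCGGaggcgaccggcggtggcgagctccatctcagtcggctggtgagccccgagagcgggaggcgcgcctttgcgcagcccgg
Grin2d: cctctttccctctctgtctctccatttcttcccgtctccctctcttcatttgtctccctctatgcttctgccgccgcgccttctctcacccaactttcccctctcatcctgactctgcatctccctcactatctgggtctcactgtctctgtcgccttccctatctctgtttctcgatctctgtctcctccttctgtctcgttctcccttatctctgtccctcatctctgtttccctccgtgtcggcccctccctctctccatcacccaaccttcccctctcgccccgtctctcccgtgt
Grin3b: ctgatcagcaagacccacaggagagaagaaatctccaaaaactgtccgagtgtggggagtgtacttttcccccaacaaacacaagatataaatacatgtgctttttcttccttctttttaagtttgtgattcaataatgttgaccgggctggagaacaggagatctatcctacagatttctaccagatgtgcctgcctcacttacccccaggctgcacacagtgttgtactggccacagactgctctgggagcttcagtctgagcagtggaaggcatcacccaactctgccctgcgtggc
These stretches are chr2:25319138-25319437, chr11:115267194-115267493 and chr7:45866632-45866931 on the minus strand, and chr10:79970474-79970773 on the plus strand. Grin1 held 1 match and 33 CG dinucleotides, Grin2c 3 matches, of which a pair overlap, and 22 CG dinucleotides, Grin2d no match and 12, and Grin3b no match and 3. Of 32851 promoters of the same length, 35.7% held the letters, and the median count of CG dinucleotides was 7. The RefSeq start of Grin2d lies 11697 bases inside the GENCODE gene, so this window is not at the outermost annotated start. Which start is used in these cells was not tested. Grin2c, which was read in almost no cell, had the most matches of the 4, so in these windows the motif count did not follow the level.

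Depth and identity of the cells were checked first. The cells held 96834 to 2780443 reads (median 827283; 755926 in Principal DR and 869546 in All DR) and a median of 9554 detected genes. All 7 serotonin neuron markers were found in more than 50% of cells, with Tph2, which makes serotonin, in 100% and the transporter Slc6a4 in 99.8%. Of the lists for other cells, the oligodendrocyte list had 1 of 6 markers in more than 50% of cells (Mbp, 74.5%), with a summed level of 18.7 to 1565 CPM on the 16 plates and a median over cells of 24.7 CPM; the astrocyte list had 1 of 6 (Slc1a2, 57.2%), with 10.5 to 90.3 CPM. The microglia, endothelial and other-neuron lists summed to means of 0.338, 0.675 and 1.20 CPM. No cell name or column was repeated. A set of 8 cells, 4 from each dissection, stood apart with 1760 to 4070 detected genes and a median of 9.92% mitochondrial reads against 2.78% in the other 991 cells. All 6 cells without a Grin1 read were among these 8, and their values are given with and without them where they decide a result.

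Grin1, for the obligatory subunit, was the most abundant member. It was read in 99.4% of cells (95% exact binomial interval 98.7 to 99.8%, which like every interval here covers counting error only) at a mean of 107.6 CPM and a median of 85 reads in the cells that had it. Plate means were 122.5, 120.6, 93.5, 61.6 and 61.8 CPM in Principal DR and 97.3 to 137.6 CPM in All DR (median 108.1). The last 2 Principal DR plates lay below every other plate, and apart from them the groups overlapped. Of the 991 cells with at least 5000 detected genes, 0 lacked a Grin1 read, which allows a share of at most 0.303% by the limit of 3 counts.

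Among the GluN2 genes, Grin2b (GluN2B) was read in 98.2% of cells at 40.4 CPM, Grin2d (GluN2D) in 66.5% at 5.27 CPM, and Grin2a (GluN2A) in 57.0% (53.8 to 60.1%) at 18.7 CPM. Grin2c (GluN2C) had 35 reads in all, from 5 cells, 20 of them in 1 cell. Grin2a and Grin2d therefore stood in a different order by level and by share. Grin2d was read shallowly, with a median of 5 reads in cells that had it and 99 cells with a single read, whereas Grin2a had a median of 21 reads and 21 single-read cells. When each cell was thinned to 250000 reads (990 cells), Grin2d was found in 49.9%, Grin2a in 53.4% and Grin2b in 96.9%. To set genes side by side, levels were also taken per kb of exon, with all annotated exons of a gene joined. An order of genes by this measure depends on that choice of length. The mean levels were 11.1 CPM per kb for Grin1, 1.62 for Grin2b, 1.04 for Grin2a, 0.792 for Grin2d and 0.00880 for Grin2c.

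Grin3a (GluN3A) was read in 25.0% of cells (22.4 to 27.8%) at 6.35 CPM, or 0.518 CPM per kb. Where present it was well covered, with a median of 15 reads, so most cells held either none or many reads. The 99 cells with the highest level of a gene, taken for each gene in turn, carried 72.6% of the Grin3a signal (CPM summed over cells), against 45.4% for Grin2a, 38.8% for Grin2d, 29.6% for Grid1, 23.7% for Grin2b and 19.0% for Grin1. Grin3b (GluN3B) had 38 reads from 6 cells, 23 of them in 1 cell, and part of its exons overlap Tmem259 as given above. Grid1 (GluD1) was read in 90.1% of cells (81.9% after thinning) at 19.9 CPM, or 3.34 CPM per kb, with plate means of 9.10 to 28.1 CPM. By level per kb the order over all cells was Grin1, Grid1, Grin2b, Grin2a, Grin2d, Grin3a, Grin3b and Grin2c. In CPM per plate, Grin1 lay above Grin2b on every plate (61.6 to 137.6 against 27.7 to 57.4), while the plate ranges of Grin2a (5.52 to 39.2), Grid1 and Grin3a (2.29 to 14.5) overlapped.

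**Figure D1:**
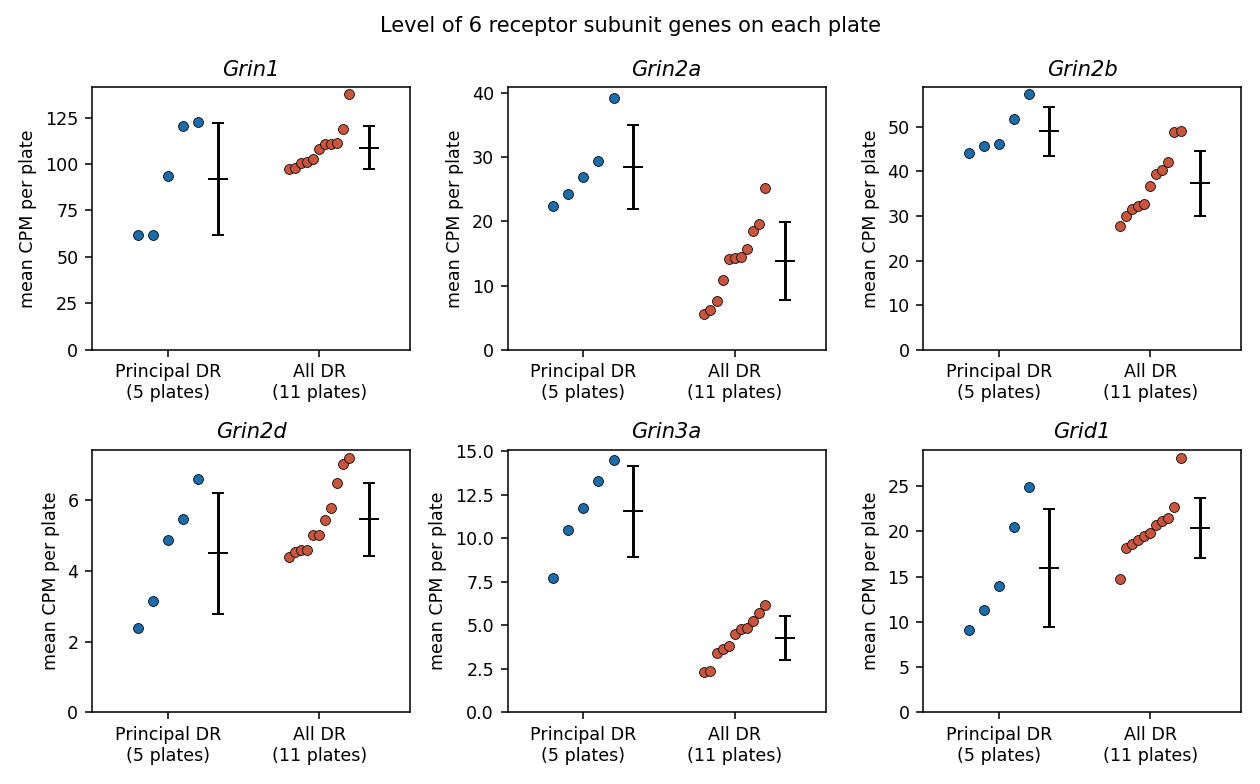
Mean level per plate (CPM, each gene on its own linear axis from 0) of 6 receptor subunit genes, with 1 point per plate, ordered by value, in Principal DR (5 plates) and All DR (11 plates), and the mean ± SD over plates beside them. Grin1 sits between 61.6 and 137.6 CPM, and Grin3a is the 1 gene of the 6 whose groups of plates do not overlap (7.69 to 14.5 against 2.29 to 6.18 CPM).

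The combinations read in single cells were then counted, taking 1 read as present. Of 999 cells, 988 (98.9%) had Grin1 with at least 1 GluN2 gene, 5 had Grin1 without one, and 1 had a GluN2 gene without Grin1. Grin1 stood with 1 GluN2 gene in 15.1% of cells, with 2 in 44.5%, with 3 in 39.1%, and with all 4 in 1 cell. A GluN3 gene joined Grin1 and a GluN2 gene in 25.3% of cells. Grin1, Grin2a and Grin2b were read together in 56.4%, and Grin1, Grin2b and Grin2d in 66.1%. In the thinned cells the share with 3 GluN2 genes was 26.2%, so the higher counts of subunits depend on depth. These are transcripts in a cell, and which subunits share a receptor was not measured.

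Over all 8 members, 36 combinations were seen. The most common, Grin1 with Grin2a, Grin2b, Grin2d and Grid1, was found in 263 cells (26.3%; 23.6 to 29.2%) and on all 16 plates. The same set without Grin2a followed with 187 cells (18.7%), the set without Grin2d with 113 (11.3%), and the set without either with 101 (10.1%). The first set plus Grin3a was found in 92 cells (9.21%). After thinning the 4 leading combinations held 17.0, 15.5, 16.3 and 14.1% of cells, which leaves no clear order among them. Thinned cells with a Grin3a read had Grid1 in 77.1% of cases (71.1 to 82.5%) and those without in 83.3% (80.5 to 85.9%), intervals that overlap.

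**Figure D2:**
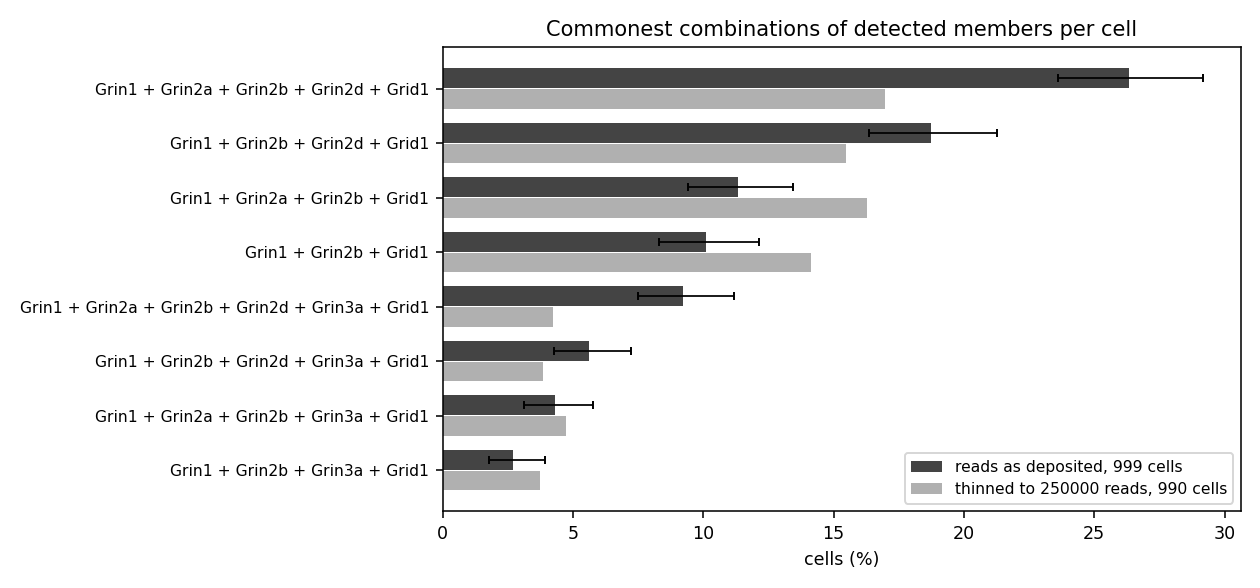
Share of cells (%) with each of the most common combinations of the receptor genes, as deposited (dark bars, with exact 95% binomial intervals) and after thinning to 250000 reads per cell (light bars). The leading combination holds 26.3% of cells as deposited and 17.0% after thinning.

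Each cell was also assigned the GluN2 gene with the highest level per kb of exon. Of the 989 cells with a GluN2 read, Grin2b led in 57.4% (54.3 to 60.5%), Grin2a in 23.7%, Grin2d in 18.7% and Grin2c in 0.202%. On single plates Grin2b led in 40.3 to 67.1% of cells. As a share of the mean GluN2 level per kb summed over the 4 genes, Grin2b held 46.9%, Grin2a 30.0% and Grin2d 22.9%. The 2 dissections were close for Grin2b, which led in 58.9% of Principal DR and 56.8% of All DR cells, while Grin2d led in 12.3 and 21.3%.

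Cells were next divided by 1 or more reads of genes that mark groups of serotonin neurons. Gad1 or Gad2, which make GABA, were read in 347 cells (183 Principal DR, 164 All DR) and Slc17a8, the vesicular glutamate transporter VGLUT3, in 649 (131 and 518). The transcription factor genes Zeb2 and Irx2 were read in 150 (3 and 147) and 164 cells (10 and 154), nearly all of them from All DR. The sets overlap: 136 cells had Gad and Slc17a8, 121 had Zeb2 and Slc17a8, 104 had Irx2 and Slc17a8, and 5 had Zeb2 and Irx2. Shares of positive and negative cells given below pool both dissections, so the mix of dissections enters them. In each comparison the mean CPM of positive and negative cells was taken on every plate with at least 5 of each, and the log2 ratio, with 1 CPM added to both, was averaged over plates. A gene was called different where this mean was at least 1 in size and at least 75% of plates had its sign. With 1 CPM added, ratios of genes at a few CPM are understated. The shares of all genes called, given below for reference, cover genes at every level. They were not matched to the levels of the members or of other genes named.

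Zeb2+ cells carried little Grin2a. Its mean on the 11 plates that could be compared was 0 to 5.02 CPM (median 0.525) in Zeb2+ cells and 7.20 to 28.4 CPM (median 16.3) in Zeb2- cells. These ranges did not overlap, and 4 plates had no Grin2a read in any Zeb2+ cell. Those plates held only 12, 9, 8 and 7 Zeb2+ cells. The mean log2 ratio was -3.11 ± 1.13 (SD, n = 11 plates), lower on 11 of 11, and it lay between -4.73 and -1.21 when 0.1 or 10 CPM was added in place of 1. Grin2a was read in 15 of 150 Zeb2+ cells (10.0%; 5.71 to 16.0%) against 65.3% of Zeb2- cells, at median depths of 864648 and 820062 reads. Grin2a was the 1 member called, where 4.22% of all genes were called in either direction and 3.11% lower.

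The other members did not follow Grin2a in Zeb2+ cells. Grin1 averaged 118 CPM in Zeb2+ and 106 in Zeb2- cells (log2 ratio 0.14 ± 0.17, higher on 8 of 11 plates), and Grin2b 42.4 and 35.8 CPM (0.22 ± 0.25, higher on 10 of 11). Grin2d (0.09) and Grid1 (-0.06) were nearer to 0. Grin3a averaged 2.44 against 5.04 CPM, with plate means of 0 to 7.55 and 1.94 to 9.16 that overlapped. Its log2 ratio of -1.11 ± 1.47 was negative on 7 of 11 plates and missed the sign rule, which it met in cells with at most 10 CPM of Mbp (-1.59, 6 of 6 plates). The combination of Grin1, Grin2b, Grin2d and Grid1 without Grin2a held 50.0% of Zeb2+ and 13.2% of Zeb2- cells, and the one with Grin2a 4.67 and 30.2%. Grin2b led the GluN2 genes in 75.8% of Zeb2+ cells (68.2 to 82.5%) and 54.2% of Zeb2- cells, and Grin2a in 2.01 and 27.5%.

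Slc17a8+ cells had less Grin3a. Plate means were 0.207 to 14.1 CPM (median 2.92) in Slc17a8+ cells and 4.34 to 35.8 CPM (median 10.5) in Slc17a8- cells over 16 plates. The ranges overlapped, but on 15 of 16 plates the Slc17a8+ cells were lower, the exception being a Principal DR plate (0.43). The log2 ratio was -1.50 ± 1.31 (SD, n = 16 plates), and Grin3a was read in 17.7% (14.9 to 20.9%) against 38.6% of cells (33.4 to 43.9%). Grin3a was the 1 member called, where 0.533% of genes were called in either direction and 0.18% lower. In All DR alone the ratio was -1.91 (lower on 11 of 11 plates), in Principal DR alone -0.61 (4 of 5). It was -1.62 (10 of 11 plates) in cells without a Gad read, and -0.34 (8 of 13) in cells with one, where Grin3a was not called; the difference between these ratios was not tested.

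Grin2a took the opposite sign in the same cells. It averaged 24.7 CPM in Slc17a8+ cells (plates 5.95 to 74.0, median 19.0) and 11.4 CPM in Slc17a8- cells (2.26 to 20.7, median 12.3), and was read in 63.0 and 45.7% of cells. Plate ranges overlapped, yet Slc17a8+ cells were higher on 16 of 16 plates, by 0.27 to 2.08 on the log2 scale. The mean log2 ratio of 0.94 ± 0.58 fell short of 1 and passed only a smaller limit of 0.5, which 2.57% of genes passed. Without the Zeb2+ and Irx2+ cells it was 1.13 (14 of 14 plates), and in Principal DR alone 1.40 (5 of 5), both past the limit. Within cells with a Gad read it was 0.37 (8 of 13), and without one 1.06 (10 of 11). The mean ratios of Grin1 (0.03), Grin2d (-0.04) and Grid1 (-0.01) were smaller in size than their SD over plates. So was that of Grin2b (0.22 ± 0.35), which was higher in Slc17a8+ cells on 11 of 16 plates and was not called.

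**Figure D3:**
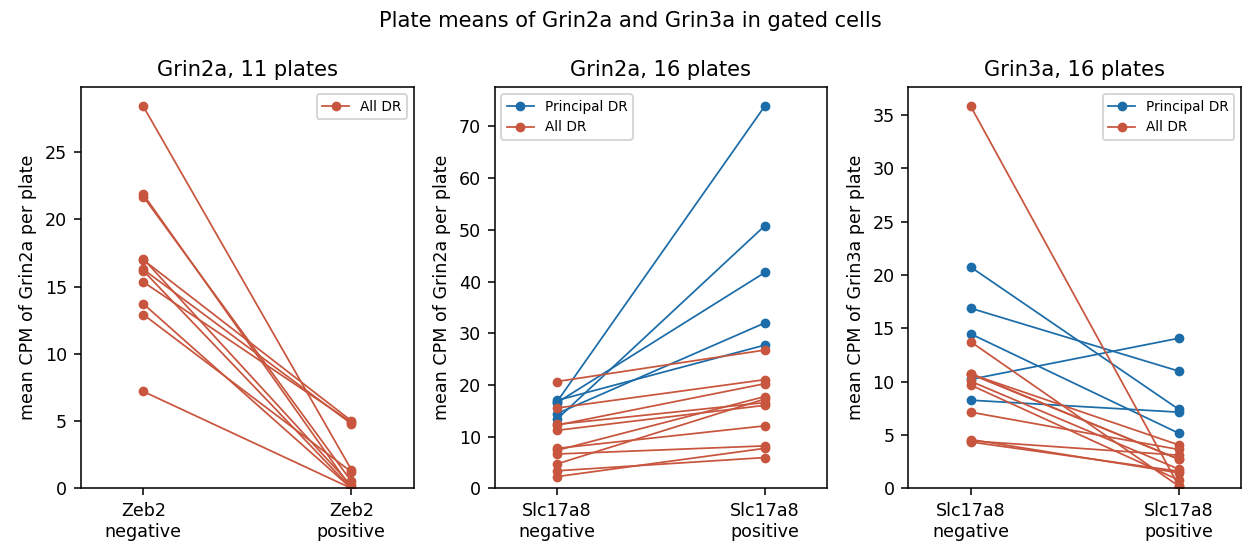
Mean CPM of Grin2a and Grin3a per plate in cells without and with a read of the dividing gene, each line joining the 2 values of 1 plate. Grin2a is lower in Zeb2+ cells on 11 of 11 plates and higher in Slc17a8+ cells on 16 of 16, and Grin3a is lower in Slc17a8+ cells on 15 of 16.

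No member was called between Gad+ and Gad- cells, where 0.588% of all genes were. Grin2a had the widest gap, 13.1 CPM in Gad+ cells (plates 0.894 to 26.6) and 22.9 CPM in Gad- cells (6.93 to 64.7), and was lower on 14 of 16 plates. Its log2 ratio of -0.84 ± 0.84 passed only the limit of 0.5, as 2.44% of genes did. When ln(CPM + 1) was averaged over cells in place of CPM the difference was -1.23 in log2 units and Grin2a was called. Within Slc17a8+ cells the log2 ratio was -0.85 (10 of 13 plates), and within Slc17a8- cells -0.16 (7 of 11). Grin3a averaged 9.05 CPM in Gad+ and 4.96 CPM in Gad- cells, a log2 ratio of 0.75 ± 1.48 that was positive on 10 of 16 plates and was not called. Grin2b was slightly lower in Gad+ cells, with a ratio of -0.19 ± 0.28 on 14 of 16 plates.

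No member was called between Irx2+ and Irx2- cells on 12 plates either, where 1.21% of genes were. Grin2a averaged 8.77 CPM in Irx2+ cells (plates 1.92 to 24.9) and 16.5 CPM in Irx2- cells, a ratio of -0.84 ± 1.34 with 8 of 12 plates lower. It was called in cells with at most 10 CPM of Mbp (-1.32, 6 of 7 plates). Grin3a was read in 8.54% of Irx2+ cells (4.75 to 13.9%) against 28.3% of Irx2- cells. These shares pool the dissections: 154 of 164 Irx2+ but 555 of 835 Irx2- cells were from All DR, where Grin3a was read less often. Its mean level ratio within plates was -0.62 ± 1.34, and a few Irx2+ cells were high (up to 124 CPM). Grid1 was 0.20 higher on the log2 scale, on 10 of 12 plates, which is below either limit.

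**Figure D4:**
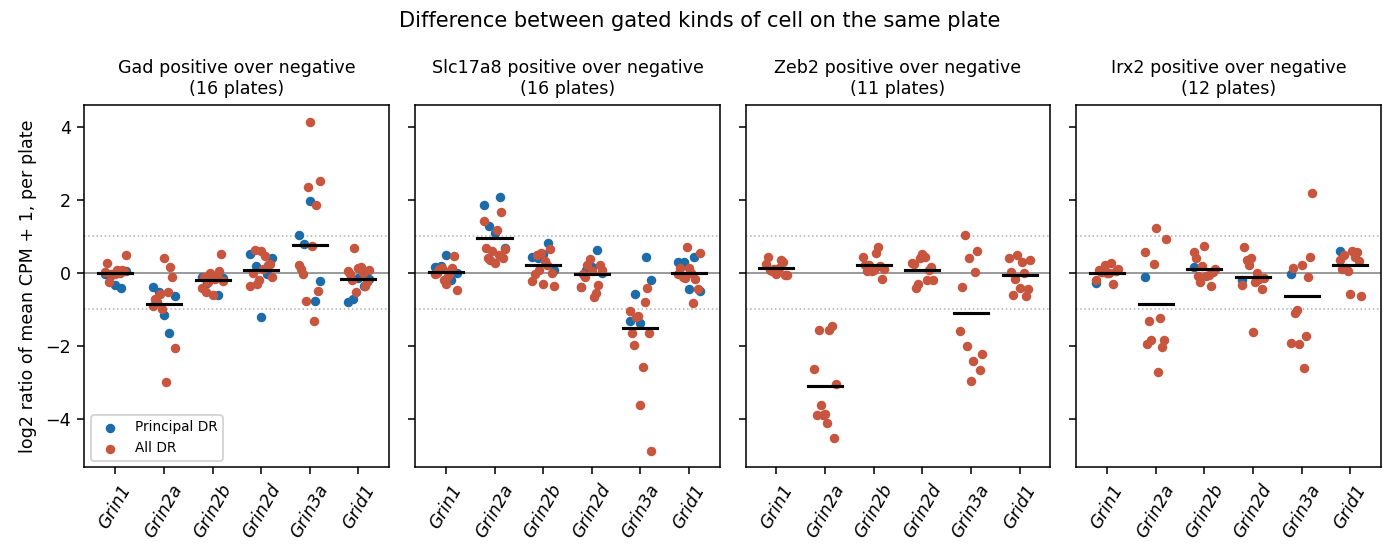
Log2 ratio of mean CPM (1 CPM added) between cells with and without a read of each dividing gene for 6 receptor genes, with 1 point per plate, a bar at the mean over plates and dotted lines at 1 and -1. The Zeb2 ratio of Grin2a (-3.11) and the Slc17a8 ratio of Grin3a (-1.50) are the values called at a limit of 1.

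Cells were also placed in classes that do not overlap, by first setting aside Zeb2+ and Irx2+ cells and then dividing the rest by Gad and Slc17a8. The 5 cells with Zeb2 and Irx2, and the 3 Principal DR cells of the Zeb2 class, were too few to describe. Grin2a was read in 93.7% of the 79 Principal DR cells with Slc17a8 alone (43.1 CPM) and in 82.3% of the 260 such All DR cells (26.6 CPM). In cells with Gad alone it was read in 45.1% (13.7 CPM) of 133 and 40.8% (11.4 CPM) of 49, and with Gad and Slc17a8 in 77.8% (47.3 CPM) of 45 and 64.4% (19.2 CPM) of 45. The 142 All DR cells of the Zeb2 class were the lowest at 8.45% (1.39 CPM), followed by 149 Irx2 cells at 38.9% (6.66 CPM). Cells with neither Gad nor Slc17a8 had Grin2a in 75.0% (28.0 CPM) of 20 and 74.6% (17.1 CPM) of 59. The order of shares was thus the same in both dissections for the 3 classes with Gad or Slc17a8. The order of levels was not: cells with Gad and Slc17a8 lay above Slc17a8 alone in Principal DR and below it in All DR. Levels of these 3 classes, and of cells with neither gene, were lower in All DR.

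Grin3a had another order. It was read most in cells with neither Gad nor Slc17a8, in 55.0% of 20 Principal DR cells (19.7 CPM) and 62.7% of 59 All DR cells (15.7 CPM). Cells with Gad alone followed in All DR at 38.8% (8.24 CPM), and had 42.9% (14.0 CPM) in Principal DR, where cells with both had 44.4% (15.0 CPM). Cells with Slc17a8 alone had 31.6% (4.91 CPM) and 13.8% (2.25 CPM), and the All DR classes of Zeb2 and Irx2 cells 12.7% (1.90 CPM) and 8.05% (3.20 CPM). The exact intervals of neighbouring classes overlapped in Principal DR. In All DR the intervals of the class with neither gene (49.1 to 75.0%) and of Slc17a8 alone (9.89 to 18.7%) lay apart, but these classes are not neighbours in the order.

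**Figure D5:**
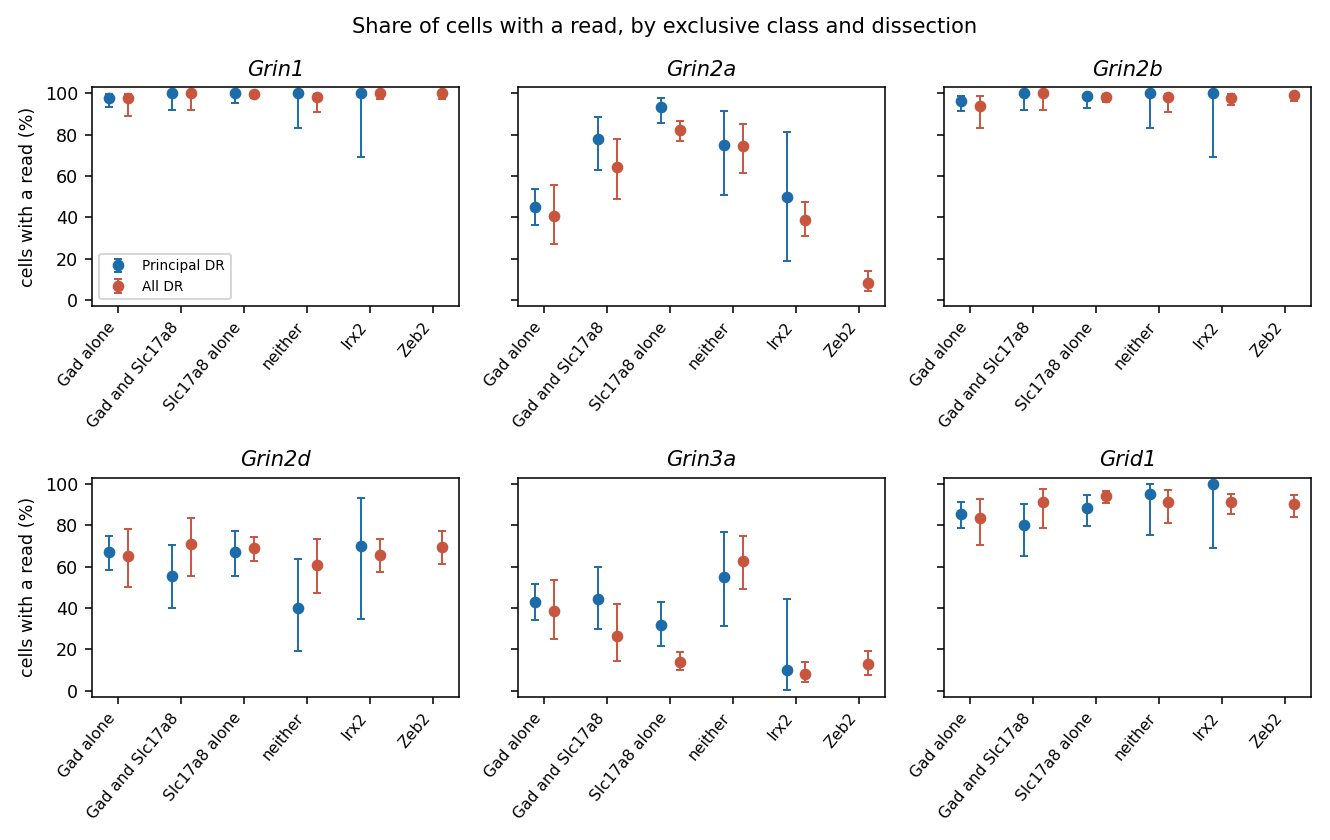
Share of cells (%) with a read of 6 receptor genes by class and dissection, with exact 95% binomial intervals. Grin2a runs from 8.45% of All DR Zeb2 cells to 93.7% of Principal DR cells with Slc17a8 alone, and Grin3a from 8.05% of All DR Irx2 cells to 62.7% of All DR cells with neither Gad nor Slc17a8.

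Between dissections a gene was called where the log2 ratio of mean plate means was at least 1 in size and the plates did not overlap. Grin3a plate means were 10.5, 14.5, 13.3, 11.7 and 7.69 CPM in Principal DR and 2.29 to 6.18 CPM (median 4.50) in All DR. All 5 Principal DR plates lay above all 11 All DR plates. The log2 ratio of All DR to Principal DR was -1.25, from means of 4.26 ± 1.26 (SD, n = 11 plates) and 11.5 ± 2.63 CPM (SD, n = 5 plates), and Grin3a was read in 19.0 and 39.7% of cells. It was the 1 member called, where 1.5% of genes were called (0.98% lower), and 4.97% of genes had plates that did not overlap. Plate, animal and dissection cannot be told apart, and fewer cells of a type and less RNA per cell both enter these plate means. Among cells without Zeb2 or Irx2 the ratio was -0.97 (5.56 against 11.8 CPM), among Gad+ cells -0.79 and among Gad- cells -1.21, and in each of these the plates overlapped and Grin3a was not called.

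Grin2a came close to the same limit. Its plate means were 29.5, 26.9, 24.2, 39.2 and 22.5 CPM in Principal DR and 5.52 to 25.2 CPM (median 14.3) in All DR. The highest All DR plate lay above the lowest Principal DR ones, so the groups overlapped, and the ratio was -0.99. Without that All DR plate Grin2a was called as well. In Gad- cells the ratio was -1.33 and the plates lay apart, whereas without Zeb2+ and Irx2+ cells it was -0.51. The plates also overlapped for Grin2b (-0.38), Grin1 (0.24), Grin2d (0.23) and Grid1 (0.33). With only the first 3 Principal DR plates listed, an alternative added after seeing the data, Grin1 was at -0.04, Grin2d at -0.04 and Grid1 at 0.04. Grin2b stayed at -0.38.

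Genes that work with these receptors were examined in 6 lists, of postsynaptic scaffolds (16 measured), NMDA receptor auxiliary, trafficking and anchoring proteins (14), receptor-linked signalling (18), co-agonist supply and glutamate uptake (9), delta receptor partners (9), and AMPA and kainate subunits (9). In Zeb2+ cells 9 of these genes were called, 8 lower and 1 higher, beside 4.22% of all genes in either direction. Lower were Cbln4, a cerebellin (-4.73), the adaptor Lin7a (-3.29) and the kinase subunit Camk2a (-2.14), each on 11 of 11 plates, and also Neto1, Neto2, Nos1, Rasgrf1 and Cbln1, which are named here after their values were seen. The neurexin gene Nrxn3 was higher (2.12). No gene of the scaffold, co-agonist or AMPA and kainate lists was called at the limit of 1. At 0.5, 4 of the 16 scaffold genes were lower in Zeb2+ cells, as were 6.68% of all genes. List medians lay from -0.13 to -0.01 beside -0.02 for all genes.

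In Gad+ cells, where 0.588% of all genes were called, the AMPA subunit gene Gria3 was higher (1.43, 16 of 16 plates), and the glutamate transporter Slc1a2 (-1.32) and the Ras exchange factor Rasgrf2 (-1.14) were lower. In Slc17a8+ cells Slc1a2 (1.13) and Cbln4 (1.04) were the 2 genes called, both higher, beside 0.533% of all genes. In Irx2+ cells 5 were called, beside 1.21% of all genes: Cbln4 (-2.56) and Slc1a2 (-1.03) lower, and the kainate subunit gene Grik1 (1.80), Cbln1 (1.31) and Camk2a (1.03) higher, of which Slc1a2 and Camk2a are named after their values were seen. Between dissections, where 1.5% of all genes were called, Grik1 was higher in All DR (3.19) and Neto2, an auxiliary subunit gene, lower (-1.69). Slc1a2 is also on the astrocyte marker list, whose summed median was 13.4 CPM in Slc17a8+ and 0 CPM in Slc17a8- cells. That sum is largely Slc1a2 itself, at a mean of 17.9 of 22.7 CPM over all cells. Each other marker of the list was read in 2.10 to 5.11% of cells. The part of astrocyte RNA in these values was not tested.

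Members were correlated within plates on ln(CPM + 1), over 999 cells that share plates and vary in depth. For the 15 pairs of the 6 members above 1 CPM the median Pearson correlation was 0.02. The highest, Grin1 with Grin2b, was 0.22 (above 0 on 13 of 16 plates) and became 0.07 without the 8 cells of few genes and 0.06 by rank, so most of it rested on those cells. Grin2a with Grin2b was 0.09, with 0.30 in Principal DR and -0.03 in All DR. The lowest was Grin3a with Grid1 at -0.09.

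Among 8087 genes with a mean of at least 10 CPM, those most like Grin2a were Cbln4 (0.53, above 0 on 15 of 16 plates), the potassium channel subunit gene Kcnab1 (0.48) and the serotonin receptor gene Htr5b (0.44), with 0.54, 0.49 and 0.44 in cells with at least 5000 detected genes. Those most like Grid1 were Efr3b (0.24), Cyb561 (0.22) and Sult4a1 (0.22), with 0.21, 0.18 and 0.15 in those cells. For Grin1 they were Dcaf7 (0.51), Nsg1 (0.50) and Dmtn (0.49), and for Grin2b Fkbp1a (0.31), Kif3a (0.29) and Scamp5 (0.29). Without the cells of few genes the Grin1 values became 0.12, 0.13 and 0.11 and the Grin2b values 0.14, 0.13 and 0.15. Of the dividing genes, Slc17a8 correlated with Grin2a at 0.33 (above 0 on 16 of 16 plates) and with Grin3a at -0.19 (below 0 on 15 of 16), and Zeb2 with Grin2a at -0.30.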

How the data were processed

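Single tdTomato+ cells were sequenced by Smart-seq2. Per the submitters' processing notes the authors used bcl2fastq 2.19.0.316, STAR 2.6.1a, HTSeq 0.11.2 and mm10; the annotation version is not given in the sources used here. The authors removed Y-linked genes and deposited CPM (read counts scaled to each cell's total) per gene and cell, not on a log scale; 999 of 1536 labelled cells were in the table, and the other 537 were not analysed here. Dividing each value by the smallest step in its cell gave whole reads for 100% of values above 0 (tolerance 0.001), and these set depth, thinning (250000 reads, fixed seed) and presence (at least 1 read). A limit of 5 cells of each kind per plate and a pseudocount of 1 CPM were used. Exon lengths and positions are from GENCODE M21. Reads carry no molecular identifiers, so 95% Clopper-Pearson intervals cover counting error only. A count model was not used, since the labels do not link cells to the several brains of each dissection. Each group was therefore treated as 1 sample, which allows no test. The members, the companion lists and the dividing genes were chosen with earlier results of these data known. Genes named were the 8 members, the dividing genes, up to 3 called companion genes of largest ratio per comparison, and the 3 genes most like each member above 10 CPM; further companion genes are marked where they are named. The contrast code was tested on simulated data. Doublets were not called. Alternatives were the read or CPM limit for presence, pseudocount, thinning, log averaging, gene and cell filters, subsets of cells and single plates left out. Python 3.11.15, NumPy 2.4.6, SciPy 1.17.1, pandas 2.3.3 and matplotlib 3.10.9 were used.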

Additional observations from a re-analysis of the deposited data

How the results depend on the processing

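Of 103 values recomputed for the results that answer a comparison, 73 kept to their value and 30 moved. Most of these are shares or counts, and a change of sign was not scored for them. Of 739 values for single members and pairs 27 moved. A ratio or correlation counted as moved only where it shifted by at least its SD over plates, and a share where it left its interval. This rule is loose where plates vary widely. The Slc17a8 ratio of Grin3a was -1.50 with an SD of 1.31, so its smaller value in cells with a Gad read did not count as moved. The cause of the moves was not tested. With presence set at 5 reads or at 10 CPM, 3 and 3 members in place of 5 were found in more than 50% of cells, cells with Grin1 and a GluN2 gene fell from 98.9% to 96.5 and 94.8%, and the most common combination from 26.3% to 11.1 and 3.80% (17.0% after thinning). Without cells of few genes, an alternative added after seeing the data, Grin1 with a GluN2 gene was in 99.5% of cells. Grin2b led in 61.7% of cells with 10 CPM required, and in 50.7% per kb of the longest transcript (added), in place of 57.4%. The count of members called was 1 (Grin2a) in place of 0 for Gad by log averaging and at a limit of 0.5. For Slc17a8 it was 2 (Grin2a and Grin3a) in place of 1 with 0.1 CPM added, after thinning, at 0.5, without Zeb2+ and Irx2+ cells, for Slc17a8 alone against Gad alone, and (both added) with at most 10 CPM of Mbp or no Gad read. It was 0 with 10 CPM added, among genes above 10 CPM, which leaves out Grin3a, and in cells with a Gad read (added). With at most 10 CPM of Mbp (added) it was 2 for Zeb2 and 1 for Irx2. Between dissections it was 0 with 10 CPM added, by log averaging (Grin3a -0.94, plates still apart), among genes above 10 CPM, in Gad+ cells, without Zeb2+ and Irx2+ cells, and with at most 10 CPM of Mbp (added; Grin3a -1.42, plates overlapping), and stayed 1 in Gad- cells with Grin2a in place of Grin3a. Leaving out each plate in turn gave 0 to 0 calls for Gad and Irx2, 1 to 1 for Slc17a8 and Zeb2, and 1 to 2 between dissections (2 without the highest Grin2a plate of All DR). It gave 25.2 to 27.4% for the leading combination, 98.8 to 99.1% for Grin1 with a GluN2 gene, 5 to 5 members in more than 50% of cells, 56.6 to 58.9% for Grin2b leading and 0.01 to 0.03 for the median correlation. No paired analysis was possible because the labels give the dissections no shared replicate numbers; within the dissections, cells with and without a dividing gene were compared on the same plate, with no test. Depth limits Grin2d most, since 99 of its 664 positive cells rest on a single read.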
